A study of Mus musculus with 126 samples.

Results

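The 10 genes described here are the ones most used to follow the epithelial to mesenchymal transition, namely Cdh1, Epcam, Cdh2, Vim, Fn1, Zeb1, Zeb2, Snai1, Snai2 and Twist1. They were taken by symbol from a table of read counts that lists 23420 genes, and all 10 were found and passed the filter on low counts. RNA was sequenced from mouse embryonic stem cells of the J1 strain in 4 groups of 2 libraries, while the other 118 of the 126 samples in the series were not analysed here. The first group was wild type with DMSO, the second wild type with Trichostatin A (TSA), an inhibitor of histone deacetylases, and the other two were triple knockout (TKO) cells, labelled Dnmt1-/-, Dnmt3a-/-, Dnmt3b-/-, with DMSO and with TSA. All groups shared growth on gelatin in serum with leukaemia inhibitory factor, and 36 h in either TSA (5 ng/µl per the labels) or the solvent (0.0033% DMSO). Whether the TKO cells are 1 clone, and whether the 2 libraries of a group come from separate cultures, is not given in the sources used here, so p-values measure only the spread between these libraries.

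In the epithelial to mesenchymal transition, cells that are held together by E-cadherin junctions give them up and take on the shape, the N-cadherin adhesion and the matrix of motile cells. Zeb, Snail and Twist family transcription factors drive the switch, and Snail and ZEB proteins bind E-box letters in the promoter of the E-cadherin gene and silence it. Embryonic stem cells are epithelial in this sense, with E-cadherin and EpCAM at their contacts, and a transition of this kind occurs in the embryo at gastrulation. DNA methylation, which Dnmt enzymes place on the C of the letter pair CG, and histone deacetylation, which TSA blocks, are both associated with silent promoters.

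The 250 bases upstream of the start of 4 of the genes are shown because the study removed the methylation of CG pairs, and because the E-box is the letters that Snail and ZEB proteins bind. Of the 10 genes, 5 matched the RefSeq promoter table (GRCm38.p6), namely Epcam, Vim, Zeb2, Snai1 and Twist1. Twist1, Snai1 and Zeb2 are written with each CG in capitals, and Epcam with each E-box in capitals (CACCTG, or CAGGTG on the other strand). All run 5′ to 3′ on the strand of the gene. They are chr12:33957421-33957670 (+) for Twist1, chr2:167537945-167538194 (+) for Snai1, chr2:45113280-45113529 (-) for Zeb2 and chr17:87635729-87635978 (+) for Epcam.
Twist1: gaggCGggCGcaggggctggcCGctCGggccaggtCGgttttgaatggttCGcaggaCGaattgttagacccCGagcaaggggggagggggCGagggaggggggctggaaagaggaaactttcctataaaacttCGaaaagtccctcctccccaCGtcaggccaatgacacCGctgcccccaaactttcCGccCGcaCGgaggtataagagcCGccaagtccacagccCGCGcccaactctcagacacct
Snai1: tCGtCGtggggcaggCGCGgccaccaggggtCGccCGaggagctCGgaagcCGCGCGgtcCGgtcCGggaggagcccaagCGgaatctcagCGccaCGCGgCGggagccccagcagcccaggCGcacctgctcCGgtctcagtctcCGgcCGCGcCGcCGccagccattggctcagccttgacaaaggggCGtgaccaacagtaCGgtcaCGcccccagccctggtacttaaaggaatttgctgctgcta
Zeb2: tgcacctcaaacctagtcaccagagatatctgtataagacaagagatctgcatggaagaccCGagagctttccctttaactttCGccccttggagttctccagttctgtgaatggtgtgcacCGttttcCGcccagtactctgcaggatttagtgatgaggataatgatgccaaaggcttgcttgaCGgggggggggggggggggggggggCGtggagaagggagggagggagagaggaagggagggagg
Epcam: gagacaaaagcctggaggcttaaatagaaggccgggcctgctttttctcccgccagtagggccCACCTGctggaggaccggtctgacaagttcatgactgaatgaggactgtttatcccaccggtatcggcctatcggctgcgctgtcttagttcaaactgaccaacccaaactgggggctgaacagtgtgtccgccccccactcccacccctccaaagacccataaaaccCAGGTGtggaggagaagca
The window of Snai1 ends 32 bases before the deposited gene model, and that of Zeb2 is the one of its 4 windows in the table that meets the deposited start. Snai1 holds 27 CG pairs, more than 91.4% of the 32817 windows in the table, and Twist1 holds 18, more than 78.3% of them. Epcam and Vim hold 8 each and Zeb2 holds 6, which is the median of all windows, with quartiles of 2 and 16. Epcam carries an E-box 187 bases and another 19 bases upstream of its start, and Snai1 carries 1 at 126 bases. At least 1 E-box occurs in 17.2% of all windows and 2 or more in 2.07%, and neither spelling was found in the windows of Vim, Zeb2 and Twist1. These matches describe letters and not binding.

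The libraries held 13280631 to 15542527 counts. A floor of 3 counts was chosen to mark very low levels, which amounts to 0.183 to 0.243 CPM (counts scaled to a common library size). Values below the floor were kept in the tests. Levels are CPM scaled by TMM factors. Such floors cover counting error only. The targeted genes were lower in all 4 TKO libraries than in any wild type library, with Dnmt1 at 123 to 134 CPM against 359.9 to 464, Dnmt3a at 25.9 to 39.1 against 152 to 236, and Dnmt3b at 43.6 to 76.1 against 343 to 595. All 10 embryonic stem cell markers examined were detected, and their summed level was 3503 to 3974 CPM in wild type with DMSO, 1940 to 2178 with TSA, 4427 to 4853 in TKO with DMSO and 1926 to 2253 with TSA. The sum was thus lower in all TSA libraries, and its part in the values given below was not tested.

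After TSA in wild type cells, Snai2 rose and Vim, Fn1, Zeb1 and Zeb2 fell. After TSA in TKO cells, Cdh1, Cdh2, Snai1, Snai2 and Twist1 rose and Fn1, Zeb1 and Zeb2 fell. In TKO against wild type cells with DMSO, Zeb1 and Twist1 were higher and Cdh1, Cdh2 and Zeb2 were lower. With TSA in both genotypes, Zeb1 and Twist1 were again higher in TKO and Cdh1 and Zeb2 lower. Cdh1 lies in a stretch of chromosome 8 where many genes were lower in TKO, as described below. In the fit of all libraries, genes of the mesenchymal side were called in both directions in each of these comparisons. Some of these calls were lost on leaving out 1 library. Snai2, the only higher call with TSA in wild type, was lost without wild type DMSO library 2 (log2 1.84). Cdh2 and Zeb2, lower in TKO with DMSO, were not called without wild type DMSO library 1 (log2 -0.66 and -0.64). The same held without TKO DMSO library 2 (log2 -0.58 and -0.42). In these bulk samples, fewer cells of a type and less RNA per cell cannot be told apart.

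The word called is used for genes that passed edgeR's quasi-likelihood test with a Benjamini-Hochberg adjusted p under 0.05, among 15822 genes tested. TSA called 5 of the 10 in wild type, 1 higher and 4 lower, where 52.8% of all tested genes were called, 27% higher and 25.9% lower. TSA called 8 of the 10 in TKO, 5 higher and 3 lower, where 58.7% of all genes were called, 30.8% higher and 27.9% lower. The share among the 10 is thus near that of all genes in wild type. The TKO genotype called 5 of the 10 with DMSO, 2 higher and 3 lower, beside 20.4% of all genes, 9.62% higher and 10.7% lower. It called 4 of the 10 with TSA, 2 higher and 2 lower, beside 18.4% of all genes, 10% higher and 8.38% lower. Between TKO TSA and wild type DMSO cells, 7 of the 10 were called, 3 higher and 4 lower, beside 61.9% of all genes, 31.7% higher and 30.2% lower. The median log2 fold change of all tested genes lay between -0.01 and 0.04 in these comparisons. The comparisons share libraries and are not independent of each other. Permuting 2 against 2 libraries exactly gives no p under 0.333 for a gene, so the calls rest on variances that edgeR shares across genes.

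Leaving out 1 library at a time, the count of called members with TSA in wild type fell to 2 without wild type DMSO library 2 and to 3 without wild type TSA library 2. With TSA in TKO it fell to 5 without TKO DMSO library 2. Between the genotypes with DMSO it fell to 3 without wild type DMSO library 1 and to 3 without TKO DMSO library 2.

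**Figure D1:**
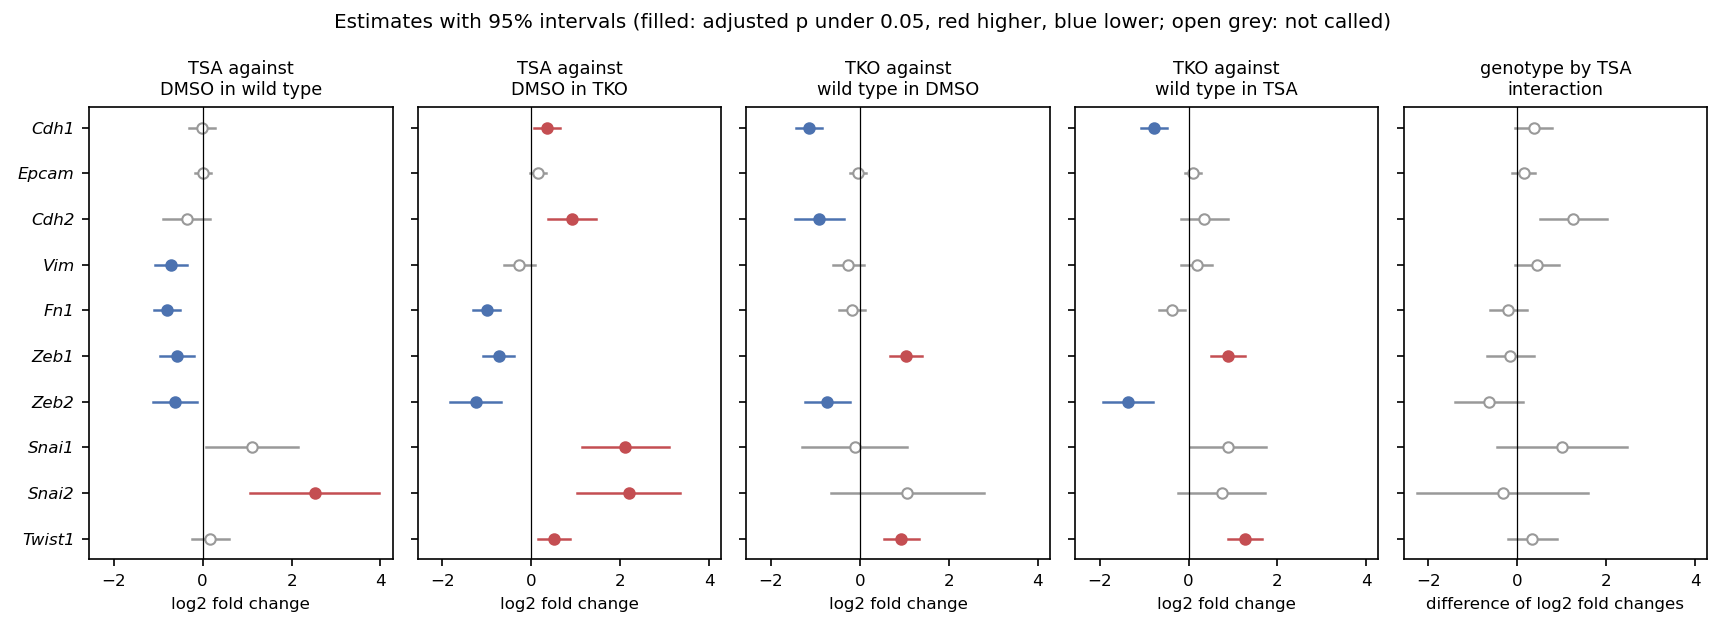
Log2 fold change of each gene (horizontal axis) in 5 comparisons (panels), with 95% intervals. Filled points passed edgeR's test at an adjusted p below 0.05 (red higher, blue lower) and open grey points did not; Cdh1 sits left of 0 in both TKO panels at -1.15 and -0.78, Twist1 and Zeb1 sit right of 0 in both, and no point of the interaction panel is filled.

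Per length, the genes span a wide range of levels. Expressed per kilobase of exon and averaged over the 8 libraries, Vim stood at 133, Epcam at 117, Cdh1 at 108 and Fn1 at 34.9 normalised CPM per kilobase. The transcription factors and Cdh2 were far lower, with Twist1 at 5.60, Cdh2 at 3.00, Zeb1 at 1.98, Snai1 at 1.42, Zeb2 at 0.867 and Snai2 at 0.619. Vim was above 96.8% and Snai2 above 12.5% of the tested genes on this scale. E-cadherin RNA exceeded N-cadherin RNA per length in every library. The ratio of Cdh1 to Cdh2 was 38.2 and 42.1 in wild type with DMSO, 52.5 and 47.5 with TSA, 27.1 and 45.2 in TKO with DMSO, and 21.4 and 24.4 with TSA. The lowest ratios were those of both TKO TSA libraries, while the TKO DMSO libraries spanned the wild type DMSO values.

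**Figure D2:**
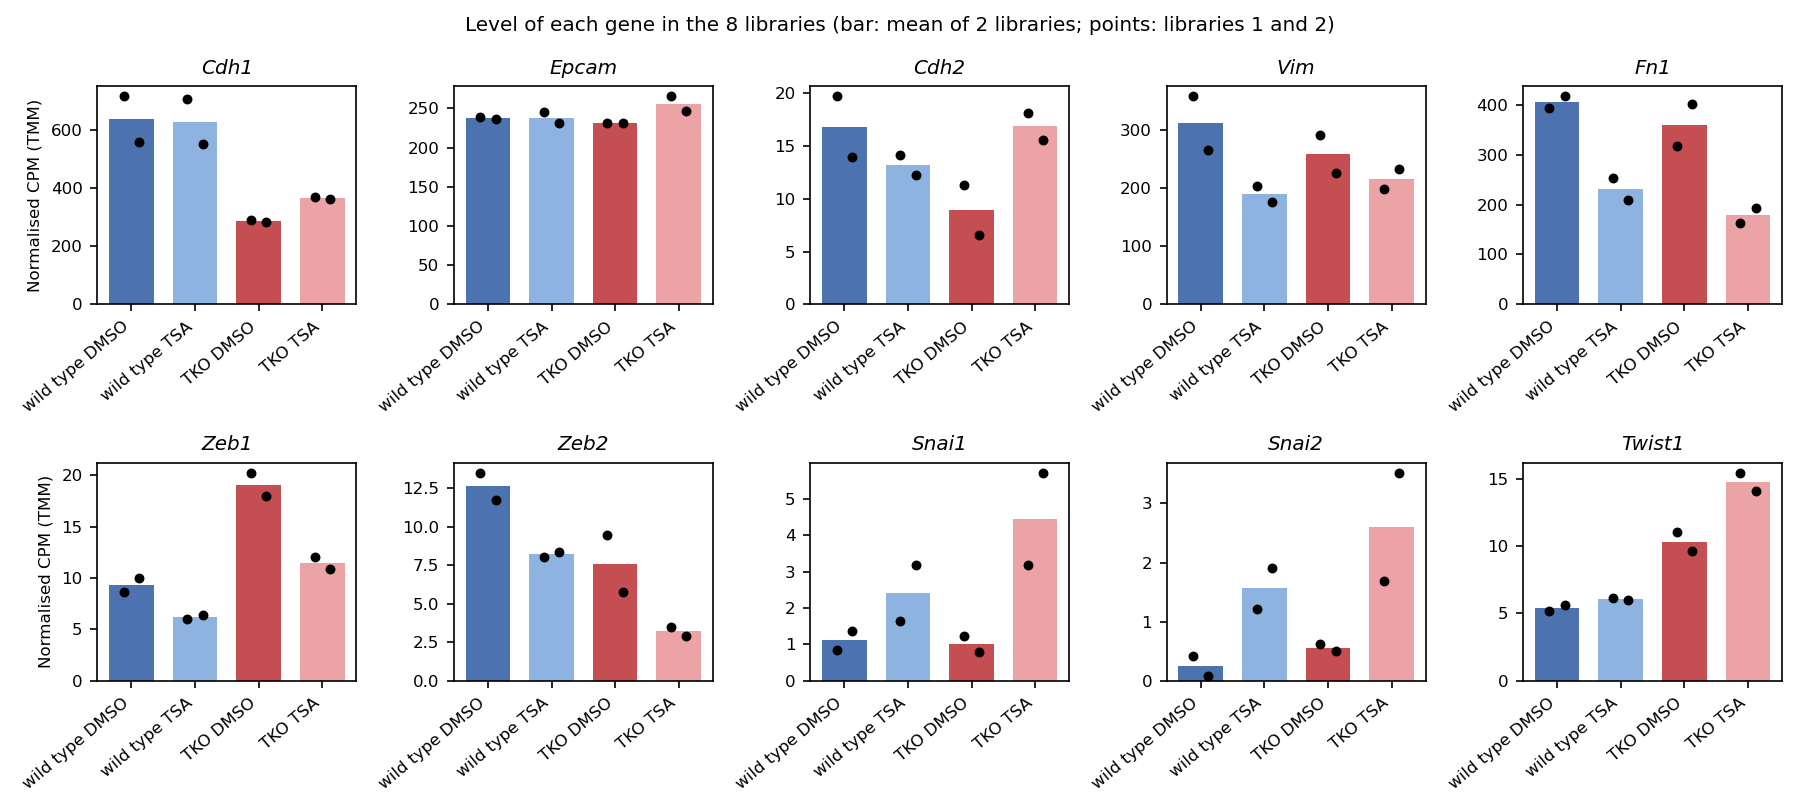
Normalised CPM (vertical axes, each from 0) of the 10 genes, 1 panel a gene, in the 4 groups; bars are means of 2 libraries and points are the libraries. Cdh1 is low in the 4 TKO libraries at 281 to 369 CPM, Twist1 is high there at 9.60 to 15.4 CPM, and Epcam stays between 231 and 265 CPM throughout.

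Cdh1 (chromosome 8, 106603368 to 106670246, plus strand, mm10) encodes E-cadherin, the adhesion protein whose loss defines the transition. It stood at 714 and 557 CPM in wild type cells with DMSO, in library 1 and library 2, and at 703 and 551 CPM with TSA. It stood at 290.4 and 281 CPM in TKO cells with DMSO and at 369 and 361 CPM with TSA. All 4 TKO libraries lay below all 4 wild type libraries, and within TKO both TSA libraries lay above both DMSO libraries. Cdh1 was 2.22-fold lower in TKO with DMSO (log2 -1.15, SE 0.13, edgeR adjusted p 0.00025) and 1.72-fold lower with TSA (log2 -0.78, SE 0.13, edgeR adjusted p 0.00275). TSA left Cdh1 with a log2 change of -0.02 in wild type (95% interval -0.31 to 0.27). In TKO, TSA raised Cdh1 1.28-fold (log2 0.35, SE 0.13, edgeR adjusted p 0.0395), but this call was lost on leaving out any 1 of the 4 TKO libraries, at log2 0.33 to 0.38 and edgeR adjusted p 0.0906 to 0.154. With TSA, TKO cells still held 1.74-fold less Cdh1 RNA than wild type cells with DMSO (log2 -0.80, edgeR adjusted p 0.000366).

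The lower level of Cdh1 in TKO was shared by much of the chromosome around it. Of the 120 tested genes that start within 5 Mb of Cdh1, 70 were called lower and 1 higher in TKO with DMSO, and their median log2 fold change was -0.59. With TSA, 67 were lower and 3 higher, with a median of -0.51. Cdh1 stood -0.57 from the neighbours' median with DMSO and -0.27 from it with TSA, and 12 of the 120 neighbours with DMSO and 31 with TSA had a log2 fold change under that of Cdh1. In bins of 10 Mb along chromosome 8, medians were -0.49 to -0.60 with DMSO in the 4 bins from 90 to 130 Mb and -0.56 in the first 10 Mb, and -0.04 to 0.10 in the bins between. With TSA the same 4 bins stood at -0.47 to -0.61 and the first at -0.60. Whether the shift of the chromosome accounts for the level of Cdh1 was not tested. A cadherin gene beside it, Cdh3 (106510891 to 106556908), picked after its value was seen, gave log2 0.01 with DMSO (edgeR adjusted p 0.963) and -0.39 with TSA (edgeR adjusted p 0.0675). The tested genes on either side of this pair, Zfp90 and Tango6, were called lower in both. They gave log2 -0.83 and -0.45 with DMSO, and -0.95 and -0.48 with TSA. The other 9 genes had no such surroundings, with neighbour medians from -0.17 (Vim) to 0.10 (Cdh2) in TKO with DMSO and from -0.04 (Epcam) to 0.12 (Cdh2) with TSA.

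**Figure D3:**
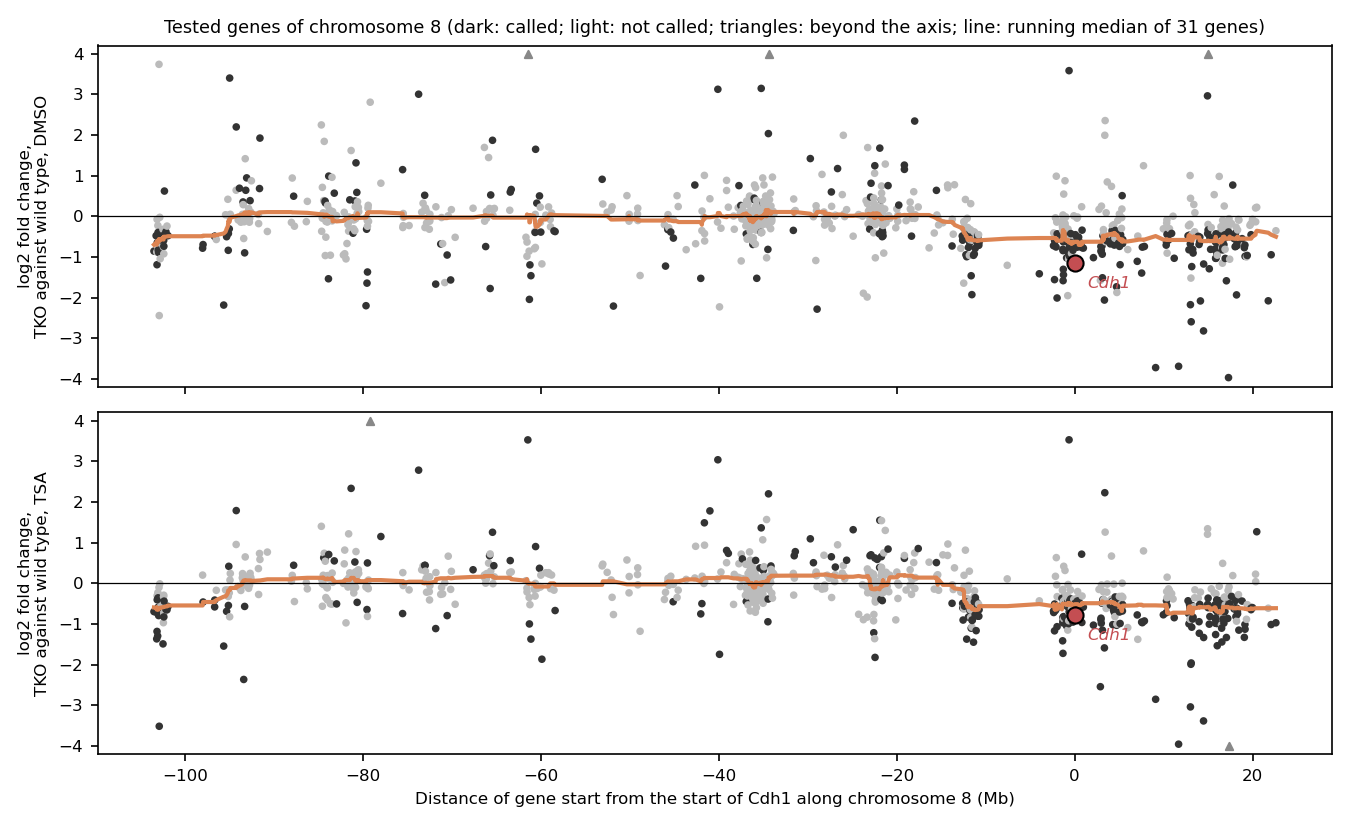
Difference between TKO and wild type as log2 fold change (vertical axis) for tested genes of chromosome 8 by distance of their start from that of Cdh1 (horizontal axis, Mb), with DMSO (upper panel) and TSA (lower panel). Dark points were called, light points were not, triangles lie beyond the axis and the line is a running median; it runs below 0 at both ends of the chromosome, and Cdh1 (red) lies below it at -1.15 and -0.78.

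Epcam (chromosome 17, 87635979 to 87651127, plus strand) encodes the epithelial cell adhesion molecule, and it was the steadiest of the 10. Its level was 239 and 236 CPM in wild type with DMSO, 245 and 231 with TSA, 231 and 231 in TKO with DMSO, and 265 and 246 with TSA. The wild type groups overlapped, and both TKO TSA libraries lay above the other 6. No comparison called Epcam. The log2 difference was 0.00 for TSA in wild type (95% interval -0.18 to 0.19), 0.15 for TSA in TKO (-0.04 to 0.33), -0.04 for TKO with DMSO (-0.23 to 0.14) and 0.10 for TKO with TSA (-0.08 to 0.29). The intervals leave room for changes of up to 1.26-fold upward in TKO with TSA against DMSO. That TSA effect in TKO passed the test where total counts were the only scaling (log2 0.29, edgeR adjusted p 0.00826) and under upper quartile scaling (0.22, edgeR adjusted p 0.0371), as did the TSA effect in wild type under total counts (0.21, edgeR adjusted p 0.0477). Total counts as the only scaling put the median of all genes at 0.22 for TSA in wild type and 0.19 in TKO.

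Cdh2 (chromosome 18, 16588877 to 16809049, minus strand) encodes N-cadherin, the cadherin gained as E-cadherin is lost. Its level was 19.7 and 13.9 CPM in wild type with DMSO and 14.1 and 12.2 CPM with TSA. It was 11.3 and 6.55 CPM in TKO with DMSO and 18.1 and 15.6 CPM with TSA. Both TKO DMSO libraries were below the other 6, and wild type DMSO overlapped both TSA groups. Cdh2 was 1.88-fold lower in TKO with DMSO (log2 -0.91, SE 0.25, edgeR adjusted p 0.0247) and rose 1.88-fold with TSA in TKO (log2 0.91, SE 0.25, edgeR adjusted p 0.00835). Without TKO DMSO library 2, the library at 6.55 CPM, these became log2 -0.58 (edgeR adjusted p 0.188) and 0.58 (edgeR adjusted p 0.0800). The genotype call was also lost without wild type DMSO library 1 (log2 -0.66, edgeR adjusted p 0.176). TSA in wild type gave log2 -0.35 (95% interval -0.88 to 0.17), and TKO TSA against wild type DMSO gave 0.00 (-0.52 to 0.52).

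Vim (chromosome 2, 13574311 to 13582826, plus strand) encodes vimentin, the intermediate filament of mesenchymal cells. It was at 357 and 265 CPM in wild type with DMSO and at 203 and 176 CPM with TSA. TKO cells held 292 and 226 CPM with DMSO and 197 and 233 CPM with TSA. TSA separated the libraries in wild type and not in TKO, where the groups overlapped. Vim fell 1.64-fold with TSA in wild type (log2 -0.71, SE 0.16, edgeR adjusted p 0.00342). In TKO the log2 change was -0.27 (95% interval -0.62 to 0.08). The genotypes overlapped under both treatments, with log2 -0.27 with DMSO (-0.61 to 0.08) and 0.18 with TSA (-0.17 to 0.53). TKO with TSA was 1.45-fold below wild type with DMSO (log2 -0.53, edgeR adjusted p 0.0128), which was lost without wild type DMSO library 1 (log2 -0.30, edgeR adjusted p 0.136), without TKO TSA library 1 (-0.42, edgeR adjusted p 0.0864) and with total counts as the only scaling (-0.36, edgeR adjusted p 0.0659).

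Fn1 (chromosome 1, 71585473 to 71653234, minus strand) encodes fibronectin, a matrix protein laid down by mesenchymal cells. It was at 395 and 417 CPM in wild type with DMSO and at 253 and 210 CPM with TSA. TKO cells held 317 and 402 CPM with DMSO and 164 and 194 CPM with TSA. All 4 TSA libraries lay below all 4 DMSO libraries, whatever the genotype. Fn1 fell 1.75-fold with TSA in wild type (log2 -0.81, SE 0.13, edgeR adjusted p 0.000562) and 2.01-fold in TKO (log2 -1.01, SE 0.13, edgeR adjusted p 9.75e-05). Both calls held under all 15 alternatives tried. The genotype gave log2 -0.18 with DMSO (95% interval -0.47 to 0.12) and -0.37 with TSA (-0.67 to -0.08, edgeR adjusted p 0.0761), the latter called by DESeq2 (adjusted p 0.0491) and without the filter on low counts (edgeR adjusted p 0.0321). TKO with TSA was 2.27-fold below wild type with DMSO (log2 -1.18, edgeR adjusted p 2.78e-05).

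Zeb1 (chromosome 18, 5591860 to 5775468, plus strand) encodes a zinc finger repressor of the E-cadherin gene. It was at 8.63 and 9.96 CPM in wild type with DMSO and at 6.04 and 6.38 CPM with TSA. In TKO it was at 20.2 and 18.0 CPM with DMSO and at 12.0 and 10.9 CPM with TSA. The 4 groups did not overlap, and they ran from wild type TSA through wild type DMSO and TKO TSA to TKO DMSO. Zeb1 was 2.06-fold higher in TKO with DMSO (log2 1.04, SE 0.16, edgeR adjusted p 0.00146) and 1.85-fold higher with TSA (log2 0.88, SE 0.17, edgeR adjusted p 0.00554), the latter at edgeR adjusted p 0.0579 without wild type TSA library 1. TSA lowered Zeb1 1.67-fold in TKO (log2 -0.74, SE 0.16, edgeR adjusted p 0.00238) and 1.49-fold in wild type (log2 -0.58, SE 0.18, edgeR adjusted p 0.0173). The wild type call was lost without wild type DMSO library 2, TSA library 1 or TSA library 2 (edgeR adjusted p 0.0829, 0.0864 and 0.0592), under total counts (log2 -0.38, edgeR adjusted p 0.0945) and upper quartile scaling (-0.43, edgeR adjusted p 0.0614), and in DESeq2 (adjusted p 0.0538). TKO with TSA stood at log2 0.31 from wild type with DMSO (95% interval -0.06 to 0.67).

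Zeb2 (chromosome 2, 44983634 to 45113279, minus strand) encodes the closest relative of Zeb1, and it differed from Zeb1 in its direction between the genotypes. It was at 13.5 and 11.7 CPM in wild type with DMSO and at 8.06 and 8.35 CPM with TSA. Its TKO values were 9.44 and 5.75 CPM with DMSO and 3.52 and 2.89 CPM with TSA. The 2 TKO TSA libraries were the lowest of the 8 and the 2 wild type DMSO libraries the highest, while TKO DMSO spanned wild type TSA. Zeb2 fell with TSA in TKO by 1.25 on the log2 scale (SE 0.26, edgeR adjusted p 0.0018), a 2.38-fold change, and was 2.56-fold lower in TKO than in wild type with TSA (log2 -1.36, SE 0.26, edgeR adjusted p 0.00492). TKO with TSA was 3.94-fold below wild type with DMSO (log2 -1.98, SE 0.25, edgeR adjusted p 6.09e-05). These calls held under all 15 alternatives.

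The other 2 calls of Zeb2 were less firm. With TSA in wild type it was 1.54-fold lower (log2 -0.62, SE 0.23, edgeR adjusted p 0.0402), lost without any 1 of the 4 wild type libraries (edgeR adjusted p 0.0561 to 0.167), under total counts (log2 -0.42, edgeR adjusted p 0.146) and upper quartile scaling (-0.47, edgeR adjusted p 0.104), and in DESeq2 (adjusted p 0.0854). In TKO with DMSO it was 1.66-fold lower (log2 -0.73, SE 0.23, edgeR adjusted p 0.0470), a call lost in 11 of 15 alternatives. The value was -0.42 without TKO DMSO library 2 (edgeR adjusted p 0.308) and -1.13 without TKO DMSO library 1. Without any 1 of the other 6 libraries it lay between -0.64 and -0.82, at edgeR adjusted p 0.0500 to 0.191. Of the exon bases of Zeb2, 3.70% also belong to Gm13476 on the other strand or to Mir5129, and the strand setting of the counting is not given in the sources used here. No other of the 10 genes shares exon bases.

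Snai1 (chromosome 2, 167538227 to 167542811, plus strand) encodes Snail, a repressor of the E-cadherin gene. Its counts were low. It was at 0.856 and 1.38 CPM in wild type with DMSO (12 and 17 counts) and at 1.65 and 3.19 CPM with TSA (27 and 47 counts). In TKO it was at 1.23 and 0.800 CPM with DMSO (18 and 11 counts) and at 3.18 and 5.71 CPM with TSA (47 and 91 counts). All 4 TSA libraries were above all 4 DMSO libraries, and the genotypes overlapped under each treatment. Snai1 rose 4.34-fold with TSA in TKO (log2 2.12, SE 0.45, edgeR adjusted p 0.0019), a call kept under all 15 alternatives. In wild type the change was 2.16-fold (log2 1.11, 95% interval 0.08 to 2.15, edgeR adjusted p 0.0666), not called, but called under total counts (log2 1.32, edgeR adjusted p 0.0370), upper quartile scaling (1.26, edgeR adjusted p 0.0459), no filter (1.11, edgeR adjusted p 0.0434) and without wild type TSA library 1 (1.52, edgeR adjusted p 0.0272). Without wild type TSA library 2 it was log2 0.57 (edgeR adjusted p 0.426), and without wild type DMSO library 1 it was 0.80 (edgeR adjusted p 0.283). The genotype gave log2 -0.12 with DMSO (-1.29 to 1.06) and 0.89 with TSA (0.03 to 1.75, edgeR adjusted p 0.139). TKO with TSA was 4.01-fold above wild type with DMSO (log2 2.00, edgeR adjusted p 0.00241).

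Snai2 (chromosome 16, 14705859 to 14709382, plus strand) encodes Slug, the Snail relative of neural crest and mesoderm, and it was the lowest of the 10 per length. It was at 0.428 and 0.0810 CPM in wild type with DMSO (6 counts and 1 count) and at 1.22 and 1.90 CPM with TSA (20 and 28 counts). In TKO it was at 0.615 and 0.509 CPM with DMSO (9 and 7 counts) and at 1.69 and 3.51 CPM with TSA (25 and 56 counts). All 4 TSA libraries lay above all 4 DMSO libraries, and the second wild type DMSO library lay below the level of 3 counts. Snai2 rose 5.72-fold with TSA in wild type (log2 2.52, SE 0.66, 95% interval 2.10-fold to 15.6-fold, edgeR adjusted p 0.00807). It rose 4.59-fold in TKO (log2 2.20, SE 0.53, edgeR adjusted p 0.00421). The wild type value was log2 4.13 without wild type DMSO library 1 and 1.84 without library 2 (edgeR adjusted p 0.0540), and the TKO value was 1.57 without TKO TSA library 2 (edgeR adjusted p 0.0522). The genotype gave log2 1.07 with DMSO (-0.65 to 2.79) and 0.75 with TSA (-0.23 to 1.73), neither called. TKO with TSA was 9.62-fold above wild type with DMSO (log2 3.27, SE 0.62, edgeR adjusted p 0.000834), with an interval of 3.77-fold to 24.6-fold, and log2 4.87 without wild type DMSO library 1.

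Twist1 (chromosome 12, 33957671 to 33959831, plus strand) encodes a basic helix-loop-helix factor of mesoderm and neural crest. It was at 5.21 and 5.59 CPM in wild type with DMSO and at 6.17 and 5.98 CPM with TSA. The TKO libraries gave 11.0 and 9.60 CPM with DMSO and 15.4 and 14.1 CPM with TSA. All 4 TKO libraries lay above all 4 wild type libraries, and none of the 4 groups overlapped. Twist1 was 1.91-fold higher in TKO with DMSO (log2 0.93, SE 0.18, edgeR adjusted p 0.00465) and 2.42-fold higher with TSA (log2 1.28, SE 0.17, edgeR adjusted p 0.000753). Both calls held under all 15 alternatives. With TSA in TKO it rose 1.43-fold (log2 0.51, SE 0.17, edgeR adjusted p 0.0200), lost without TKO DMSO library 2 (log2 0.42, edgeR adjusted p 0.124), without TKO TSA library 1 (0.45, edgeR adjusted p 0.104) and in DESeq2 (adjusted p 0.0731). TSA in wild type gave log2 0.17 (95% interval -0.24 to 0.58). TKO with TSA was 2.73-fold above wild type with DMSO (log2 1.45, SE 0.18, edgeR adjusted p 4.53e-05).

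Markers of other cell types were read beside these values, as summed CPM in the lowest and highest library of each group. The 6 markers of primitive streak and mesoderm gave 17.2 to 27.0 in wild type with DMSO and 15.8 to 21.2 with TSA. In TKO they gave 8.82 to 9.02 with DMSO and 21.3 to 24.0 with TSA. Mesp1 and Tbx6 stayed under 1 CPM in every library. In the same order of groups, T had means of 9.70, 3.40, 0.391 and 0.773 CPM. Eomes had means of 7.83, 5.53, 2.62 and 12.7 CPM, and Kdr of 2.49, 7.54, 4.33 and 7.50. The markers of neural and neural crest cells (6 genes, Neurog2 under 1 CPM) gave sums of 19.5 to 26.3, 6.66 to 7.39, 36.1 to 46.2 and 10.3 to 15.01 in the same order. Pax6 and Sox1 made up most of that sum except in wild type with TSA, where their means were 2.13 and 1.01 CPM. Each was lower with TSA in both genotypes. The crest marker Sox10 had a mean of 0.609 CPM with DMSO and 2.35 with TSA in wild type, and of 0.505 and 1.18 in TKO. Primitive endoderm (8 genes) gave 399 to 508, 518 to 524, 499 to 512 and 534 to 592 in the same order. Lamb1 and Col4a1 made up most of that sum. Sox17 had means of 0.493, 3.29, 3.40 and 13.6 CPM, and Gata6 of 1.00, 1.36, 5.26 and 4.01. Dab2 had means of 7.32, 8.16, 8.19 and 8.29 CPM. Epidermis and other mature epithelia (5 genes, Sftpc and Cdh16 under 1 CPM) gave sums of 2.50 to 3.00, 8.67 to 13.04, 1.44 to 1.53 and 6.42 to 9.79. The part of these cell types in the values of the 10 genes was not tested.

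Whether TSA acted differently in TKO and wild type was tested by the interaction, which subtracts the wild type response to TSA from that of TKO cells. None of the 10 was called by edgeR, beside 1.35% of all tested genes, 0.879% higher and 0.468% lower. At an unadjusted p under 0.05 edgeR gave 1 of the 10, Cdh2, and 2302 of all genes, and DESeq2 called 1 of the 10, again Cdh2, among 394 genes. Cdh2 had an interaction of log2 1.27 (SE 0.35, edgeR adjusted p 0.110), with DESeq2 at adjusted p 0.0391 and edgeR without the filter at adjusted p 0.0351. Over all 14 alternatives its adjusted p ran from 0.0123 to 0.348 and its value from log2 0.93 to 1.72. For the other 9 the edgeR adjusted p ran from 0.401 for Vim (log2 0.45, 95% interval -0.05 to 0.94) to 0.914 for Snai2 (-0.32, -2.24 to 1.60). Cdh1 gave 0.37 (-0.04 to 0.78), Zeb2 -0.63 (-1.39 to 0.13) and Snai1 1.01 (-0.46 to 2.47). The genes called with TSA in only 1 genotype, such as Vim, Cdh1, Snai1 and Twist1, are therefore not shown to differ in their response between the genotypes.

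The rest of the programme was read from 4 lists of related genes that hold none of the 10. A list of 25 epithelial junction and keratin genes was lower in TKO, with 10 called lower and 1 higher with DMSO, and 7 lower and 0 higher with TSA. These calls were 44% and 28% of the list, beside 20.4% and 18.4% of all tested genes. Its median log2 fold change was -0.29 with DMSO and -0.22 with TSA, beside -0.01 and 0.00 for all tested genes. Keratins of simple epithelia were among those lower. Krt8 stood at 291 ± 106 CPM in wild type against 30.3 ± 8.95 in TKO with DMSO (SD, n = 2, log2 -3.26, SE 0.29, edgeR adjusted p 3.64e-05), and Krt18 at 299 ± 73.2 and 33.6 ± 7.39 (log2 -3.15, SE 0.25, edgeR adjusted p 1.68e-05). Krt19 (log2 -2.64) and Dsp, which encodes the desmosome protein desmoplakin (-1.32), were lower as well. The count called lower was 6 without either TKO DMSO library, and with TSA 4 without wild type TSA library 1 or TKO TSA library 2. The 2 genes of this list in the lowered stretches of chromosome 8, Cdh3 and Esrp2, were not among the calls.

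TSA gave this list 8 calls higher and 2 lower in wild type and 8 higher and 3 lower in TKO, with medians of 0.13 and 0.16 beside 0.01 and 0.04. The calls were 40% and 44% of the list, below the 52.8% and 58.7% called among all tested genes. Cldn4, a claudin of tight junctions, rose from 220 ± 48.9 to 411 ± 1.93 CPM in wild type (log2 0.90, edgeR adjusted p 0.00084) and from 137 ± 2.21 to 407 ± 91.1 CPM in TKO (SD, n = 2, log2 1.57, edgeR adjusted p 1.93e-05). Jup, the junction protein plakoglobin, fell in both (log2 -0.76 and -0.83). The count called higher was 5 in wild type without DMSO library 2 or TSA library 1, where 5 and 4 were called lower, and 4 in TKO without TKO DMSO library 1. Scaling by total counts alone gave 13 higher in TKO. The summed level of the 6 trophoblast markers, an epithelial lineage, moved with TSA too, at 54.3 to 58.7 CPM in wild type with DMSO and 199 to 215 with TSA, and 41.0 to 59.2 and 249.8 to 252 in TKO. Tfap2c was the largest part of that sum, with means of 38.1 CPM with DMSO and 124 with TSA in wild type. Its means in TKO were 43.7 and 203 CPM. Cdx2, Elf5, Gata3 and Hand1 also had higher means with TSA in both genotypes. The mean of Krt7 was higher with TSA in wild type and not in TKO, at 3.09 CPM with DMSO and 2.82 with TSA. The part of the trophoblast markers in the keratin and claudin values was not tested.

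Of 15 further transcription factors of the transition, 12 were tested, and they moved in both directions. In TKO with DMSO 2 were higher and 5 lower, and with TSA 2 were higher and 3 lower. These calls were 58.3% and 41.7% of the 12, beside 20.4% and 18.4% of all tested genes. Hmga2, an architectural chromatin protein, was at 25.8 ± 7.55 CPM in wild type against 6.47 ± 1.13 in TKO with DMSO (SD, n = 2, log2 -2.00, edgeR adjusted p 0.000782). Klf8, a Krüppel-like factor, was higher there (log2 0.65, edgeR adjusted p 0.00673). The 5 fell to 2 without wild type DMSO library 1, TKO DMSO library 1 or TKO DMSO library 2. The 3 fell to 1 without either wild type TSA library or TKO TSA library 2, and to 0 without TKO TSA library 1. TSA gave 2 higher and 4 lower in wild type and 5 higher and 3 lower in TKO, which is 50% and 66.7% called and near the 52.8% and 58.7% of all tested genes. Snai3, another Snail gene (chromosome 8, 122454206 to 122460692), rose with TSA from 8.98 ± 3.54 to 44.7 ± 3.78 CPM in wild type (log2 2.30, edgeR adjusted p 2.32e-05) and from 5.94 ± 0.657 to 24.7 ± 0.536 in TKO (log2 2.06, edgeR adjusted p 2.53e-05). It lies in the part of chromosome 8 that was lower in TKO.

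A list of 23 genes of mesenchymal matrix, adhesion and cytoskeleton was lower in TKO, with the lowest medians of the 4 lists in both genotype comparisons. With DMSO 16 were lower and 1 higher, with a median log2 fold change of -1.41. With TSA 12 were lower and 1 higher, with a median of -0.79. The share called was 73.9% with DMSO and 56.5% with TSA, beside 20.4% and 18.4% of all tested genes. The gene called higher in both was Itgb3, an integrin subunit. Col1a1, a chain of type I collagen, was at 12.4 ± 0.469 CPM in wild type against 0.669 ± 0.0207 in TKO with DMSO (SD, n = 2, log2 -4.19, edgeR adjusted p 0.000101), and the receptor gene Cd44 at 8.79 ± 0.521 and 0.708 ± 0.130 (log2 -3.62, edgeR adjusted p 4.2e-05). Tagln, which encodes transgelin of smooth muscle, was at 297 ± 152 CPM in wild type against 4.80 ± 4.40 in TKO with TSA, and 5.99% of its exon bases are shared with Pcsk7 on the other strand. Cdh11, Mmp2 and Itgb1 lie in the lowered stretches of chromosome 8, and among the other 20 genes 13 were lower with DMSO and 10 with TSA. The 12 fell to 6 without wild type TSA library 1.

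TSA raised 10 and lowered 6 of these 23 genes in wild type, with a median of 0.24, and raised 14 and lowered 3 in TKO, with a median of 1.60. The share called was 69.6% in wild type and 73.9% in TKO, beside 52.8% and 58.7% of all tested genes, whose medians were 0.01 and 0.04. The 6 fell to 2 without wild type DMSO library 1 or wild type TSA library 2. The interaction called 5 of the 23 higher and 1 lower, beside 1.35% of all tested genes. Col1a1 was among the 5 (log2 3.05, SE 0.53, edgeR adjusted p 0.0287), and Ncam1 was the 1 lower (-1.23, SE 0.22, edgeR adjusted p 0.0298). The count of 5 was 0 without wild type DMSO library 1, TKO DMSO library 1, TKO DMSO library 2 or TKO TSA library 2, 3 without wild type TSA library 1, 2 without wild type TSA library 2, and 8 in DESeq2 and without the filter. A list of 10 markers of fibroblasts and other mesenchymal cells summed to 39.5 to 41.2 CPM in wild type with DMSO, 73.9 to 92.9 with TSA, 50.0 to 50.5 in TKO with DMSO and 67.3 to 92.1 with TSA. Fap was at 0 in every library and Col6a3 below 1 CPM. Fbln1 was the largest part of the sum, with means of 26.6, 39.0, 29.3 and 36.4 CPM in the same order. Means of Thy1, Pdgfrb, Pdgfra, Lum and Postn were higher with TSA in both genotypes. Lower means with TSA were those of Dcn in both genotypes, Twist2 in wild type and Col6a3 in TKO. The part of these markers in the matrix values was not tested.

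Of 17 genes of TGF-beta signalling, the pathway that induces the transition in many cells, 2 were higher and 5 lower in TKO with DMSO. Between the genotypes with TSA, 3 were higher and 6 lower in TKO. These calls were 41.2% and 52.9% of the 17, beside 20.4% and 18.4% of all tested genes. The ligand gene Tgfb2 was at 16.5 ± 3.18 CPM in wild type against 0.990 ± 0.143 in TKO with DMSO (SD, n = 2, log2 -4.05, SE 0.28, edgeR adjusted p 8.86e-06). The receptor gene Tgfbr2 was at 7.86 ± 3.10 and 1.30 ± 0.00692 (log2 -2.59, SE 0.34, edgeR adjusted p 0.000482). Both were lower with TSA too (log2 -3.30 and -1.99). The medians of this list were -0.02 with DMSO and -0.12 with TSA. The 3 called higher with TSA fell to 0 without either wild type TSA library or TKO TSA library 2. TSA gave 4 higher and 5 lower in wild type and 7 higher and 6 lower in TKO. Those are 52.9% called in wild type, at the 52.8% of all tested genes, and 76.5% in TKO beside 58.7%. Smad7, the inhibitory SMAD, fell in both (log2 -0.62 in wild type, edgeR adjusted p 0.00236, and -1.30 in TKO, edgeR adjusted p 1.89e-05). The 5 lower in wild type became 2 without either wild type TSA library, under total counts, under upper quartile scaling and in DESeq2, and 3 without either TKO DMSO library.

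**Figure D4:**
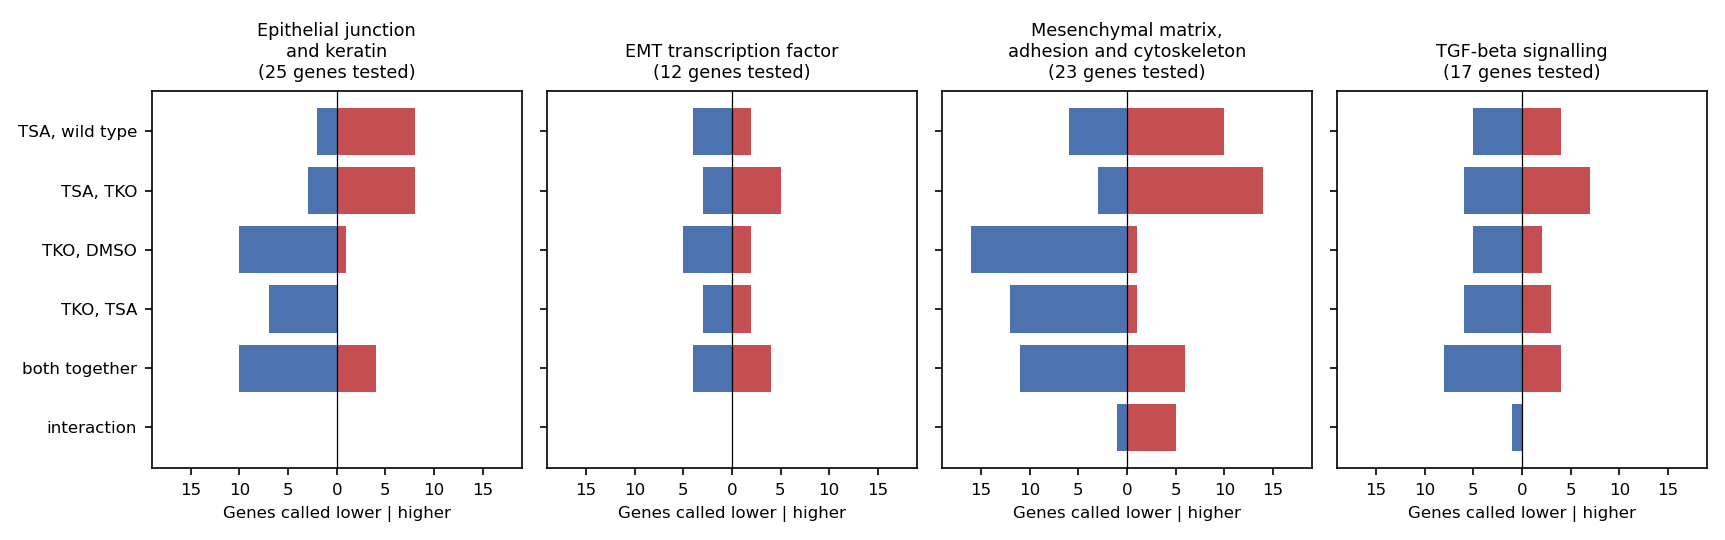
Number of genes called lower (bars to the left, blue) and higher (bars to the right, red) in each of 4 lists (panels) and 6 comparisons (rows), by edgeR at an adjusted p below 0.05. The longest bar to the left is the mesenchymal list in TKO with DMSO, at 16 of 23 genes, and the longest to the right is the same list with TSA in TKO, at 14.

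Genes whose log2 CPM followed that of each of the 10 most closely over the 8 libraries were looked up among 14421 tested genes whose mean reached 1 CPM, as a description of points that share libraries. Cdh1 was followed most closely by Tpm2 (Pearson r 0.997), Irs2 (0.992) and Kif1a (0.991). Irs2 also lies on chromosome 8, but far off, at -95.6 Mb from the start of Cdh1. Whether the shared chromosome has a part in this likeness was not tested. Fn1 was followed by Mgat5b (r 0.996), Zeb1 by Slmap (0.995) and Snai2 by Isl2 (0.993). Snai1 was followed by 1110019D14Rik (r 0.991), Twist1 by 1700080O16Rik (0.989) and Vim by Aup1 (0.986). Zeb2 was followed by 2610008E11Rik (r 0.984), Cdh2 by Rfx6 (0.971) and Epcam by Cadm1 (0.932). None of the 10 was among the 3 genes closest to another of the 10. With only 3 kept of 14421 genes, this cannot show whether the 10 moved together.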

How the data were processed

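The 8 libraries were made, per the labels' protocols, from total RNA after DNase and removal of ribosomal RNA, as directional paired-end libraries. Raw read counts per gene were deposited by the authors together with exon positions and the summed exon length, another unit, in bases. TopHat2 2.0.13, featureCounts 1.4.5-p1, edgeR 3.22.3 and mm10 are named in the submitters' processing notes; how multi-mapping reads, strand and annotation were handled is not given in the sources used here. Paralogues such as Snai1 and Snai2 are therefore counted as the authors counted them.

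The tests used edgeR 4.0.16 (R 4.3.3). After filterByExpr, 15822 of 23420 genes remained; scaling was by TMM, and a single quasi-likelihood fit took in all 8 libraries with 4 group means, leaving 4 residual degrees of freedom. Tests were two-sided, with Benjamini-Hochberg adjustment over all tested genes. Approximate SE and 95% intervals come from each log2 fold change and its F statistic. The code was tested on simulated data. Libraries of a group differed by more than counting noise, with a chi-square per degree of freedom of 5.38 to 12.4, so none was taken for 1 library deposited again. Library preparation can exceed that noise too, so this does not show separate cultures. DESeq2 1.42.0, other scalings, no filter, fits of only the 2 groups compared, a replicate block and fits leaving out each library were the alternatives.

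The 10 genes and the 4 lists were chosen with earlier results of these data known. From each list and comparison the text names at most 4 called genes, those of lowest adjusted p with a mean of at least 1 CPM. The 10 Mb bins of chromosome 8 used to place genes of the lists (0 to 10 and 90 to 130 Mb), and the counts without the genes in them, were chosen after their values were seen. So were Cdh3, Zfp90 and Tango6. Promoter sequences are from RefSeq, GRCm38.p6.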

Additional observations from a re-analysis of the deposited data

How the results depend on the processing

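Of the 29 calls made for the 10 genes by edgeR, 18 were kept under every alternative, 11 were lost under at least 1 and none changed direction. Of the 31 values not called, 8 were called under at least 1 alternative and 5 changed sign. Cdh1 with TSA in wild type turned to log2 0.18 under total counts and 0.13 under upper quartile scaling, and Epcam there to -0.0049 without the filter. Cdh2 in TKO TSA against wild type DMSO turned to 0.0095 with DESeq2 size factors, 0.17 under total counts, 0.11 under upper quartile scaling and 0.0078 in DESeq2. DESeq2 called 3 of the 10 with TSA in wild type. The interaction called 213 genes, 488 without the filter and 394 in DESeq2, and 1 of the 10, Cdh2, under each of the latter.

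Replicate numbers pair nothing by the labels, and deviations of same-numbered libraries had correlations of 0.0673 to 0.325 in 6 group comparisons. With the replicate block the interaction called 633 genes and 1 of the 10, Cdh2 (edgeR adjusted p 0.0123). Cdh2 in TKO TSA against wild type DMSO was then at log2 0.016. The block also called Snai1 with TSA against DMSO in wild type (edgeR adjusted p 0.0270). In TKO against wild type, both with TSA, it called Snai1 (edgeR adjusted p 0.0455) and Fn1 (edgeR adjusted p 0.0383).

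Leaving out 1 library at a time, members called ranged from 2 to 5 with TSA in wild type, from 5 to 8 with TSA in TKO and from 3 to 5 in TKO with DMSO. All genes called ranged from 1435 to 3328 in TKO with DMSO, from 930 to 3399 in TKO with TSA and from 9 to 392 for the interaction. Genes called in TKO with DMSO were 1706 without wild type DMSO library 1, 1800 without TKO DMSO library 1 and 1435 without library 2, and in TKO with TSA 930 without wild type TSA library 1 and 1351 without TKO TSA library 2. The interaction gave 9 without TKO DMSO library 2, 33 without library 1, 40 without TKO TSA library 2, 52 and 101 without wild type TSA libraries 1 and 2, and 56 and 392 without wild type DMSO libraries 1 and 2. Ranges that crossed 0 were log2 -0.21 to 0.17 for Cdh1 and -0.041 to 0.046 for Epcam with TSA in wild type, -0.46 to 0.25 for Snai1 in TKO with DMSO, -0.23 to 0.27 for Cdh2 in TKO TSA against wild type DMSO, and -1.91 to 0.36 for the interaction of Snai2. The cause of these shifts was not tested. Depth limits Snai1 and Snai2 most, at 1 to 91 counts a library.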
